A study of Mus musculus with 67 samples.

Results

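The trophectoderm (TE) is the outer epithelium of the blastocyst, and its transcriptome was compared between TE E4.5 and TE E3.5, embryonic days 4.5 and 3.5, using 6 of the 67 RNA-seq libraries of the series. Each group held 3 libraries, chosen by tissue and stage label alone. All were from wild-type mouse embryos with no treatment named, and the study used a line with an EGFP reporter under the Pdgfrα promoter to help sort lineages. Each library was made by Smart-seq2 from a small pool of lysed cells, with amplified cDNA, and the labels state 3 biological replicates per group. The labels' protocols describe pronase and calcium-free medium for E3.5 embryos and trypsin for peri-implantation embryos, and do not say which was used for TE E4.5, so age and a change of dissociation cannot be told apart. They give no strain, and do not say whether the TE E4.5 embryos were cultured, whether the cells were mural or polar, or which libraries came from the same embryos. For a comparison of changes over the same day, the epiblast (Epi E4.5), the primitive endoderm (PrE E4.5) and the inner cell mass (ICM E3.5), all wild type with 3 libraries each, were also used.

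The trophectoderm pumps ions and water to form the blastocoel, holds the fluid behind tight junctions and is the source of all trophoblast of the placenta. Around implantation the mural trophectoderm stops dividing and becomes invasive giant cells, while the polar trophectoderm over the epiblast keeps proliferating and forms the extra-embryonic ectoderm. Cdx2 encodes the homeobox factor that sets the trophectoderm apart from the inner cell mass, and Krt18 encodes a keratin of simple epithelia.

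Values are TPM, a transcript abundance scaled for transcript length and for the library's total, so levels are shares of each library and the reads behind a value are unknown. The TE libraries listed 9030 to 9090 genes at 1 TPM or more at E4.5 and 10077 to 10220 at E3.5. Genes above 1000 TPM in a library took 50.5% to 51.6% of the TPM at E4.5 and 38.7% to 41.2% at E3.5. Ribosomal protein transcripts (85 genes) took 14.7% to 15.0% at E4.5 and 11.7% to 12.6% at E3.5. Pearson correlations of log2(TPM + 1) across genes were 0.991 to 0.992 within TE E4.5, 0.988 to 0.990 within TE E3.5 and 0.927 to 0.933 between them. Since TPM are shares, a larger share in the abundant transcripts leaves less for the others.

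Both fixed markers were detected in every TE library, in opposite directions of change. Krt18 had 6392, 6433 and 7075 TPM in TE E4.5, against 4787, 5006 and 4920 TPM in TE E3.5. The groups did not overlap, but the log2 difference of 0.43 ± 0.15 (SE, limma adjusted p = 0.026) was under the minimum of 1 for a call. Krt18 was called higher with median-ratio scaling (log2 1.03) and not with quantile normalization (log2 0.21). Processed copies of Krt18 in the genome make its level uncertain. Cdx2 (chromosome 5, 147300900 to 147307249) had 1.54, 4.47 and 4.73 TPM in TE E4.5, against 35.8, 26.1 and 29.3 TPM in TE E3.5. All 3 TE E4.5 libraries lay under all 3 TE E3.5 libraries, and Cdx2 was lower by a log2 difference of -2.86 ± 0.48 (adjusted p = 3.4e-06). Krt18 stood at 300.0 to 359 TPM in Epi E4.5, 47.9 to 61.8 TPM in PrE E4.5 and 124 to 141 TPM in ICM E3.5.

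Of 15567 genes tested, 506 (3.25%) were called higher and 2855 (18.3%) lower in TE E4.5 than in TE E3.5, at an adjusted p under 0.05 and a log2 difference of at least 1. The median log2 difference of all genes tested was -0.26. Median-ratio scaling centres on the typical gene and raises log2 TPM by 0.60 in TE E4.5 relative to TE E3.5. With the pseudocount, differences of low genes move less, and the median of all genes tested moved to 0.00. With that scaling the calls were 1216 higher (7.81%) and 1562 lower (10.0%). With quantile normalization they were 1187 higher (7.63%) and 1291 lower (8.29%). The share of calls that were higher was 15.1% on TPM as deposited, 43.8% with median-ratio scaling and 47.9% with quantile normalization. All 506 higher calls and 1562 of the 2855 lower calls were also made with median-ratio scaling, and 0 genes were called in opposite directions. Rn45s, the ribosomal RNA precursor, had 1056, 994 and 1008 TPM in TE E4.5, against 5343, 5116 and 4633 TPM in TE E3.5. With its row dropped and the columns rescaled to 1e6, 498 genes (3.17% of 15699 tested) were higher and 2832 (18.0%) lower. Individual libraries did not overlap for 1967 genes (12.6%) in the higher and 6570 genes (42.2%) in the lower direction. The plot of change against level shows the excess of lower calls.

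**Figure D1:**
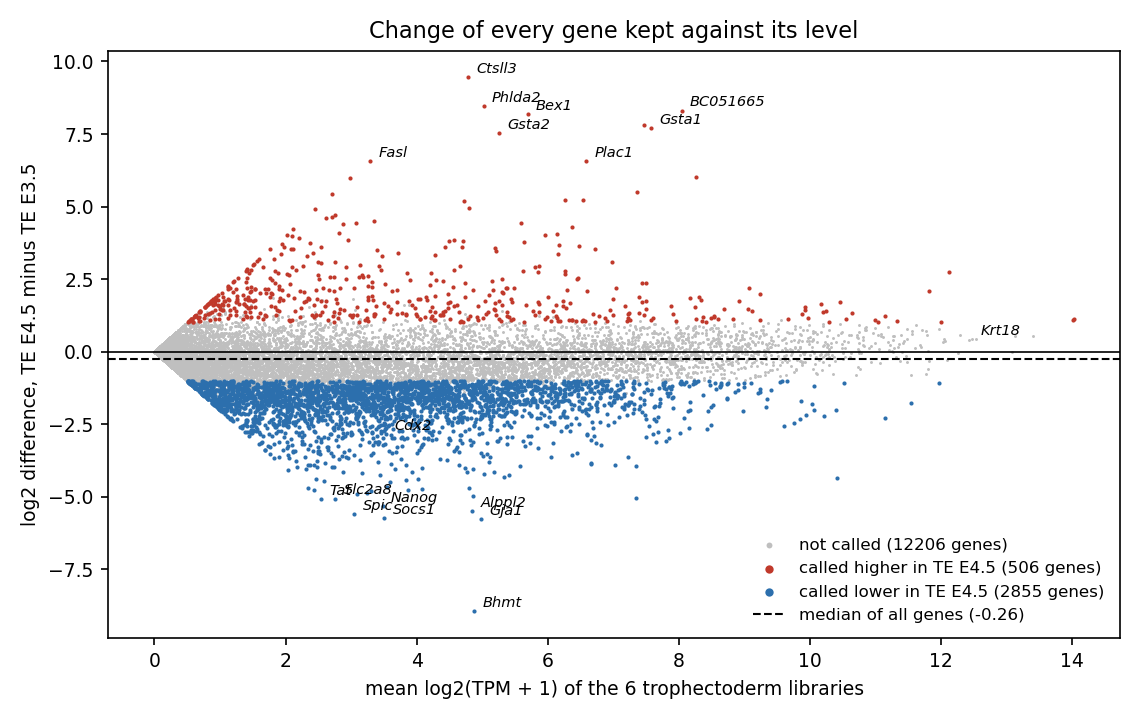
Log2 difference (TE E4.5 minus TE E3.5, vertical axis) against the mean log2(TPM + 1) of the 6 TE libraries (horizontal axis) for 15567 genes, with the leading genes and both markers named. Red points are the 506 genes called higher, blue points the 2855 called lower, and the dashed line is the median of all genes at -0.26.

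The genes of largest rise were low or listed at 0 in TE E3.5 and abundant at E4.5. Choosing them by the largest log2(TPM + 1) difference favours this pattern. BC051665 had 4502, 4733 and 4842 TPM in TE E4.5, against 15.7, 13.1 and 12.7 TPM in TE E3.5, a ratio of 339 between the means. Its neighbour Ctsll3, a cathepsin-L-like protease gene, had 709, 708 and 759 TPM in TE E4.5 and was listed at 0, 0 and 0.119 TPM in TE E3.5. Log2 differences were 8.31 ± 0.19 (adjusted p = 9.2e-38) for BC051665 and 9.45 ± 0.19 (adjusted p = 4.0e-41) for Ctsll3. The glutathione S-transferase genes Gsta1 and Gsta2, whose products conjugate electrophiles to glutathione, rose to 2738 ± 105 and 520 ± 25.6 TPM in TE E4.5, against 12.3 ± 1.71 and 1.90 ± 0.789 TPM in TE E3.5 (SD, n = 3 each). Their log2 differences were 7.69 ± 0.27 (adjusted p = 2.4e-29) and 7.53 ± 0.29 (adjusted p = 9.0e-28). Both pairs have near-identical copies in their clusters, and how the reads were shared among copies is not given.

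The promoters of these pairs are shown because the members of each pair moved together. The genes, the pairs and the capitals were chosen after the values and sequences were seen. The 250 bases before the start given in the RefSeq promoter table (GRCm38.p6) are printed 5′ to 3′ on the gene's strand, with capitals for aligned stretches of at least 12 bases identical in both members. For Gsta2 that start lies 47 bases inside the annotated gene span, whose first base is 78347192, so its window overlaps the gene by 47 bases.
Ctsll3 (chr13:60802845-60803094, minus strand): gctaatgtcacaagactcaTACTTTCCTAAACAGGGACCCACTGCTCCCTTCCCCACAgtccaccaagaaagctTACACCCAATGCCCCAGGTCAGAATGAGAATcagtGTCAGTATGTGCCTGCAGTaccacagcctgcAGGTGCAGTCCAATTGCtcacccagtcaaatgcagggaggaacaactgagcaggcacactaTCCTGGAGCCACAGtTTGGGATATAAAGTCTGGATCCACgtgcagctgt
BC051665 (chr13:60786365-60786614, minus strand): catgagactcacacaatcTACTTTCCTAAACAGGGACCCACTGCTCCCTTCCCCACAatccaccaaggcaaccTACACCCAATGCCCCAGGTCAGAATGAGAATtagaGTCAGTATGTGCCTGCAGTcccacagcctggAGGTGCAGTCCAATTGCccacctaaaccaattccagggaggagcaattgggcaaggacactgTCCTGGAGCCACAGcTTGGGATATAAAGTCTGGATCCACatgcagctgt
Gsta1 (chr9:78230419-78230668, plus strand): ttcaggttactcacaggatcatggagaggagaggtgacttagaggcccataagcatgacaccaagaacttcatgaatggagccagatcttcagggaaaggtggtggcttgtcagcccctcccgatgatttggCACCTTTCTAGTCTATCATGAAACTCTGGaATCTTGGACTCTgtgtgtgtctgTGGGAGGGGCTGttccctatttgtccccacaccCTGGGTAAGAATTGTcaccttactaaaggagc
Gsta2 (chr9:78347146-78347395, minus strand): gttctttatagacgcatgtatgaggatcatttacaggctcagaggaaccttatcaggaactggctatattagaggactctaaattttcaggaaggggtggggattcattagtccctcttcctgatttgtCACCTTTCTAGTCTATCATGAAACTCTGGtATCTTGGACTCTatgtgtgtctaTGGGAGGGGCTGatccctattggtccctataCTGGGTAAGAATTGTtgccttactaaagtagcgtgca

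In a global alignment, 220 of 245 paired bases (89.8%) were identical between the Ctsll3 and BC051665 promoters, with a longest identical run of 39 bases. For Gsta1 and Gsta2, 190 of 234 (81.2%) were identical, with a longest run of 29. 5 motifs were sought on both strands. The TATA motif TATAAA lies in the shared stretch at position -28 from the start in both Ctsll3 and BC051665, once more in Gsta2 at -246, and 12.4% of 32851 promoter windows of the same length hold it. The antioxidant response motif TGACNNNGC was found in 0 of these 4 windows, against 10.2% of all windows. The AP-1 motif TGANTCA (6.75% of all windows) and the TEAD motif GGAATG (12.6%) were likewise in 0 of the 4, and the GATA motif GATAA (22.6%) was in Gsta2 alone, at -201. The AP-1 motif was in 7.31% of 520 windows of genes called higher, 4.66% of 2916 windows of genes called lower and 4.78% of 15120 windows of all genes tested. For the antioxidant motif these shares were 11.5% of windows of higher genes, 13.3% of lower and 11.7% of all tested. For TEAD they were 10.96%, 11.6% and 10.9%, for GATA 13.8%, 15.5% and 15.6%, and for TATA 6.92%, 6.45% and 7.08%, in the same order. These matches describe letters in the window and were not tested.

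The other leading rises were Phlda2, Plac1, Fasl and Bex1. Phlda2, an imprinted gene that restrains placental growth, had 615, 609 and 604 TPM in TE E4.5 and was at 0, 4.15 and 0 TPM in TE E3.5 (log2 8.47 ± 0.32, adjusted p = 3.0e-28). Plac1, an X-linked gene needed for normal placental development, had 941, 883 and 968 TPM in TE E4.5, against 5.56, 10.4 and 11.8 TPM in TE E3.5 (log2 6.56 ± 0.52, adjusted p = 2.9e-15). Fasl, the ligand of the death receptor Fas, had 93.2, 103 and 88.8 TPM in TE E4.5 and was listed at 0 in all 3 TE E3.5 libraries. Bex1, an X-linked gene of the brain-expressed Bex family, averaged 884 ± 14.6 TPM in TE E4.5 and 2.04 ± 0.410 TPM in TE E3.5, a ratio of 432. None of these genes overlapped between the groups, which was a condition for choosing them.

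The genes of largest fall were abundant at E3.5 and low a day later, a pattern that the same choice favours. Bhmt, which remethylates homocysteine with betaine, had 0.956, 0.189 and 0 TPM in TE E4.5, against 624, 690 and 642 TPM in TE E3.5 (log2 -8.94 ± 0.30, adjusted p = 1.4e-30). Gja1, a connexin of gap junctions, had 3.08, 3.28 and 3.52 TPM in TE E4.5, against 228, 241 and 233 TPM in TE E3.5 (log2 -5.78 ± 0.30, adjusted p = 1.8e-22). Socs1, an inhibitor of cytokine signalling, had 0.924, 0.364 and 0.417 TPM in TE E4.5, against 71.1, 83.9 and 92.3 TPM in TE E3.5. The remaining leaders were the ETS factor Spic, the alkaline phosphatase Alppl2, the pluripotency factor Nanog, the tyrosine aminotransferase Tat and the sugar transporter Slc2a8, with log2 differences of -5.61, -5.49, -5.32, -5.07 and -5.06. Tat was listed at 0 in all 3 TE E4.5 libraries and had 31.0 to 34.4 TPM in TE E3.5.

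Gene lists were read against the background of 3.25% higher and 18.3% lower, or 7.81% and 10.0% with median-ratio scaling. A count near these shares is not read as a trait of its list. They were chosen with earlier results of these data known and were not tested as sets. Of 18 trophectoderm identity genes, 5 rose, 5 fell and 8 were not called, with a median log2 difference of -0.56. Krt19 had 60.4, 64.9 and 61.3 TPM in TE E4.5 and was listed at 0 in all 3 TE E3.5 libraries, and Krt7 averaged 123 ± 5.12 TPM in TE E4.5 and 10.8 ± 4.33 TPM in TE E3.5 (log2 3.48 ± 0.53, adjusted p = 4.4e-07). Both encode keratins of simple epithelia. Dab2, an endocytic adaptor, had 32.4, 32.4 and 33.3 TPM in TE E4.5, against 490, 516 and 518 TPM in TE E3.5 (log2 -3.92 ± 0.29). Median-ratio scaling gave 7 higher and 5 lower.

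**Figure D2:**
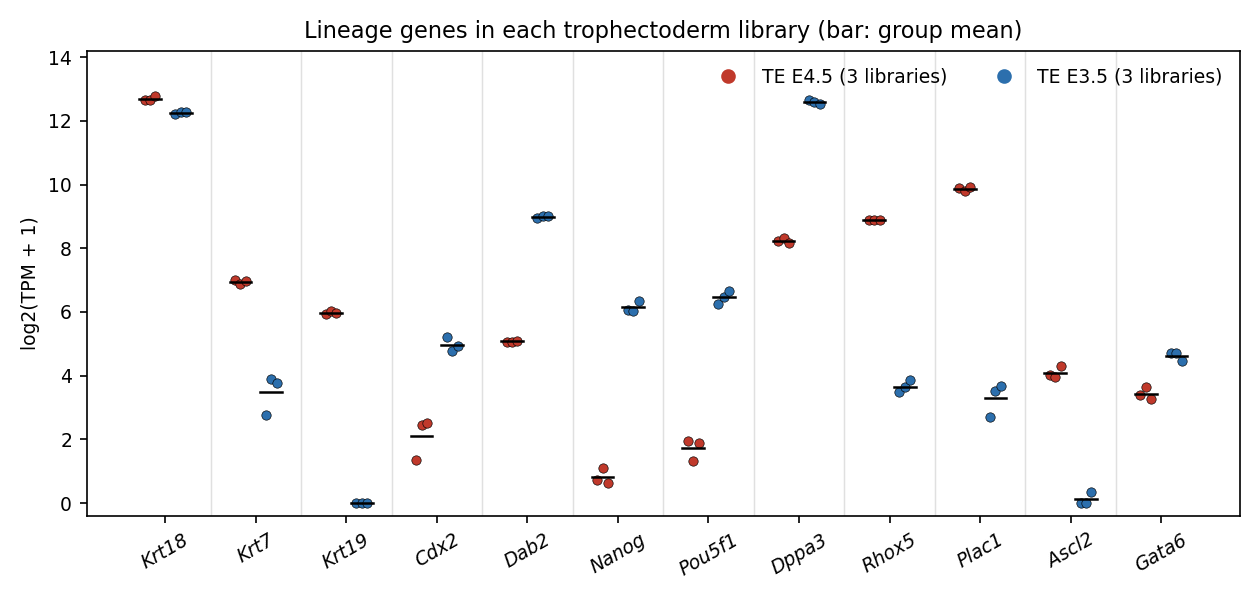
log2(TPM + 1) of 12 lineage genes in each of the 3 TE E4.5 (red) and 3 TE E3.5 (blue) libraries, with bars at the group means. Krt19, Rhox5, Plac1 and Ascl2 are higher in TE E4.5, while Cdx2, Dab2, Nanog, Pou5f1 and Dppa3 are lower, with no overlap between the groups.

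Genes of the trophoblast lineages that form later rose more often than they fell. Of 18 trophoblast stem cell and extra-embryonic ectoderm genes, 6 rose and 1 fell, with a median log2 difference of 0.25. The homeobox gene Rhox5 had 468, 469 and 470 TPM in TE E4.5, against 10.1, 11.4 and 13.6 TPM in TE E3.5. Rhox6 had 41.4, 41.9 and 41.7 TPM in TE E4.5 and was listed at 0 in TE E3.5. Sox15, a factor of giant cell differentiation, fell (log2 -1.65 ± 0.35, adjusted p = 0.00016), but was not called with quantile normalization (log2 -0.84). Of 17 giant cell and differentiation genes, 3 rose and 1 fell, with a median of 0.00. Only 4 of the 20 genes on that list averaged over 10 TPM in a TE group.

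Besides Plac1, Ascl2, a helix-loop-helix factor of trophoblast, was among the rises, with 15.1, 14.6 and 18.7 TPM in TE E4.5 and 0, 0 and 0.272 TPM in TE E3.5. Of 21 placental imprinted genes, 6 rose and 3 fell (median 0.05), but 1 fell with median-ratio scaling and without TE E3.5 replicate 2 or TE E4.5 replicate 2, and the untranslated RNA H19 was among the rises at 32.9 ± 0.584 TPM in TE E4.5 and 0.642 ± 0.468 TPM in TE E3.5. Summed over the imprinted list, levels were 751 to 760 TPM in TE E4.5, mostly from Phlda2, and 145 to 173 TPM in TE E3.5.

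Genes of the epithelial seal and of fluid transport had more lower than higher calls, as did all genes tested. On TPM as deposited, 84.9% of all calls were lower, so nothing is read from that imbalance. Of 26 junction genes, 2 rose and 9 fell, with a median of -0.83, and 5 fell with median-ratio scaling. The higher count was 1 on leaving out any TE library but TE E4.5 replicate 1. Jup, the desmosomal protein plakoglobin, averaged 1.91 ± 0.504 TPM in TE E4.5 and 25.9 ± 2.24 TPM in TE E3.5 (log2 -3.22 ± 0.37, adjusted p = 4.1e-10). Crb3, an apical polarity protein, averaged 27.8 ± 4.59 TPM in TE E4.5 and 152 ± 9.44 TPM in TE E3.5 (log2 -2.42 ± 0.41). The claudin Cldn3 went the other way, at 239 ± 8.65 TPM in TE E4.5 and 68.2 ± 12.4 TPM in TE E3.5 (log2 1.81 ± 0.35), while Cldn7 was not called (log2 -0.76 ± 0.19). Of 15 blastocoel transport genes, 2 rose and 6 fell (median -0.42), and 5 of them fell with median-ratio scaling. The water channel genes Aqp9 and Aqp8 fell to 6.93 ± 0.444 and 1.60 ± 0.531 TPM in TE E4.5, against 65.3 ± 11.5 and 18.1 ± 1.63 TPM in TE E3.5. Fxyd3, a regulator of the sodium pump, was listed at 0 in TE E3.5 and had 4.31 to 9.52 TPM in TE E4.5, and the related Fxyd4 was not called (log2 0.29 ± 0.28).

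Signalling genes that fell included receptors, feedback inhibitors and transcriptional partners. Of 20 Hippo and YAP genes, 1 rose and 8 fell (median -0.21), but 3 fell with median-ratio scaling, where 10.0% of all genes tested fell. Without 1 library the lower count was 5 (TE E3.5 replicate 1, 3 or TE E4.5 replicate 2), 4 (TE E3.5 replicate 2), 3 (TE E4.5 replicate 1) or 7 (TE E4.5 replicate 3). The coactivator Wwtr1 (TAZ) averaged 4.10 ± 1.45 TPM in TE E4.5 and 19.3 ± 1.18 TPM in TE E3.5 (log2 -2.03 ± 0.42), and its DNA-binding partner Tead2 fell as well (log2 -1.82 ± 0.27). Ccn1, a matrix protein gene known as a YAP target, rose to 50.5 ± 6.44 TPM in TE E4.5, against 13.1 ± 4.06 TPM in TE E3.5. Its relative Ccn2, of the same list and named after its values were seen, went the other way at low levels. It had at most 0.587 TPM in TE E4.5 and 1.53 to 1.81 TPM in TE E3.5. Of 21 FGF and ERK genes, 0 rose and 6 fell (median -0.48), with 2 higher and 4 lower under median-ratio scaling and 1 higher without TE E3.5 replicate 3. The phosphatase Dusp4, which dampens ERK, and the receptor Fgfr4 had log2 differences of -2.93 ± 0.41 and -2.78 ± 0.41. The related receptor Fgfr2 and phosphatase Dusp6, named after their values were seen, went the other way. Fgfr2 had 39.8 to 42.3 TPM in TE E4.5 and 20.9 to 26.3 TPM in TE E3.5. Dusp6 had 66.8 to 79.0 TPM in TE E4.5 and 40.5 to 54.4 TPM in TE E3.5. Of 24 implantation ligands and receptors, 1 rose and 6 fell (median -0.02), with 5 each way under median-ratio scaling. The higher count was 0 without TE E3.5 replicate 1, TE E4.5 replicate 1 or TE E4.5 replicate 3, and 2 without TE E3.5 replicate 3. The interleukin 1 antagonist Il1rn averaged 0.308 ± 0.272 TPM in TE E4.5 and 11.8 ± 0.688 TPM in TE E3.5, and the prostaglandin E synthase Ptges 33.5 ± 2.52 TPM in TE E4.5 and 191 ± 5.27 TPM in TE E3.5.

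Matrix and adhesion genes changed both ways. Of 27 integrin and basement membrane genes, 3 rose and 5 fell (median -0.29), and 3 fell without TE E4.5 replicate 2. The share that fell was near the 18.3% of all genes tested, so nothing is read from it. With median-ratio scaling or quantile normalization, 4 rose and 3 fell. Spp1, the integrin ligand osteopontin, had 40.1, 42.4 and 42.3 TPM in TE E4.5, against 514, 548 and 509 TPM in TE E3.5 (log2 -3.62 ± 0.30, adjusted p = 2.8e-14). The basement membrane linker Nid1 averaged 20.0 ± 1.64 TPM in TE E4.5 and 3.45 ± 0.834 TPM in TE E3.5 (log2 2.25 ± 0.50), and the laminin receptor subunit Itga7 rose as well (log2 1.65 ± 0.25). Of 22 proteases and inhibitors, 1 rose and 3 fell (median -0.07), against 2 and 0 with median-ratio scaling. The lower count was 1 without TE E3.5 replicate 3, TE E4.5 replicate 2 or TE E4.5 replicate 3, and the higher count was 0 without TE E3.5 replicate 3.

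Of 23 DNA replication genes, 0 rose and 11 fell (median -0.96), and of 20 mitosis genes, 0 rose and 7 fell (median -0.81). Median-ratio scaling left 1 higher and 5 lower in replication and 0 of 20 in mitosis. The kinase Cdk2 averaged 36.5 ± 1.16 TPM in TE E4.5 and 210 ± 6.28 TPM in TE E3.5, and the ribonucleotide reductase subunit Rrm2 averaged 171 ± 17.3 TPM in TE E4.5 and 702 ± 27.5 TPM in TE E3.5. Both were lower under every scaling, with log2 differences of -2.49 ± 0.22 and -2.04 ± 0.15. The mitotic kinases Aurka and Plk1 had log2 differences of -1.55 ± 0.17 and -1.45 ± 0.17 on TPM as deposited, and of -0.96 and -0.88 with median-ratio scaling. Birc5, a subunit of the chromosomal passenger complex, was not called and averaged 673 ± 63.7 TPM in TE E4.5 and 1105 ± 47.7 TPM in TE E3.5. Of 16 cyclin D, inhibitor and checkpoint genes, 2 rose and 6 fell (median -0.40), and 1 rose without TE E3.5 replicate 2 or 3 or TE E4.5 replicate 1 or 2. The cyclin Ccnd3 averaged 26.4 ± 7.06 TPM in TE E4.5 and 382 ± 39.6 TPM in TE E3.5, and the cell cycle inhibitor Cdkn2c fell (log2 -2.56 ± 0.42). The p53-induced inhibitor Cdkn1a rose (log2 1.61 ± 0.46, adjusted p = 0.0050), although it was not called with a pseudocount of 0.1 TPM.

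Cholesterol and amino acid transport genes rose more often than they fell. Of 20 cholesterol synthesis and uptake genes, 9 rose and 1 fell (median 0.68). Fdps, which makes farnesyl diphosphate, averaged 332 ± 18.5 TPM in TE E4.5 and 97.9 ± 5.90 TPM in TE E3.5 (log2 1.75 ± 0.17), and the sterol demethylase Cyp51 rose by a log2 difference of 2.41 ± 0.30. Dhcr7, the last enzyme of the pathway, fell (log2 -2.60 ± 0.33). Of 16 amino acid transporter genes, 7 rose and 2 fell (median 0.69). The cationic amino acid transporter Slc7a3 had 30.7, 41.2 and 43.0 TPM in TE E4.5 and 1.58, 0 and 1.33 TPM in TE E3.5, and the related Slc7a1 averaged 7.65 ± 1.01 TPM in TE E4.5 and 0.149 ± 0.0226 TPM in TE E3.5. The taurine transporter Slc6a6 and the transporter Slc7a6 fell (log2 -2.36 ± 0.38 and -2.17 ± 0.23).

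Of 22 glycolysis genes, 3 rose and 4 fell (median 0.06), against 5 and 2 with median-ratio scaling or quantile normalization. Ldha, which makes lactate from pyruvate, had 153, 153 and 173 TPM in TE E4.5, against 2.38, 3.29 and 4.85 TPM in TE E3.5 (log2 5.19 ± 0.12, adjusted p = 6.0e-38). The glucose transporter Slc2a3 fell to 42.1 ± 1.83 TPM in TE E4.5, against 135 ± 13.5 TPM in TE E3.5. Of 23 lipid genes, 1 rose and 10 fell (median -0.78), against 2 and 7 with median-ratio scaling and 3 each way with quantile normalization. Acadl, of fatty acid oxidation, averaged 64.2 ± 5.73 TPM in TE E4.5 and 499.6 ± 21.3 TPM in TE E3.5, and the triglyceride lipase Lpl rose (log2 2.18 ± 0.36). The most abundant gene of that list, the fatty acid binding protein Fabp3, was not called, at 13006 ± 539 TPM in TE E4.5 and 8981 ± 89.9 TPM in TE E3.5, but was called higher with median-ratio scaling (log2 1.13).

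Of 24 lysosome and endocytosis genes, 3 rose and 11 fell (median -0.91), and 6 fell with median-ratio scaling. The endocytic receptor Lrp2 averaged 2.65 ± 0.148 TPM in TE E4.5 and 33.1 ± 1.02 TPM in TE E3.5, and the hexosaminidase Hexa 34.3 ± 1.96 TPM in TE E4.5 and 288 ± 15.3 TPM in TE E3.5. The lysosomal protease Ctsz rose to 162 ± 12.9 TPM in TE E4.5, against 36.6 ± 2.29 TPM in TE E3.5. Of 10 iron genes, 3 rose and 1 fell (median 0.36), and 5 rose with median-ratio scaling. The haem oxygenase Hmox1 averaged 154 ± 26.2 TPM in TE E4.5 and 19.6 ± 3.13 TPM in TE E3.5 (log2 2.91 ± 0.22, adjusted p = 3.3e-16), and the iron exporter Slc40a1 rose (log2 2.71 ± 0.46). The ferritin chain Fth1 was not called (log2 0.59 ± 0.09), but passed with median-ratio scaling (log2 1.19).

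Of 12 DNA methylation genes, 0 rose and 4 fell (median -0.20). Tet2, which oxidises methylcytosine, had 2.88, 2.77 and 2.61 TPM in TE E4.5, against 46.9, 48.8 and 48.1 TPM in TE E3.5 (log2 -3.71 ± 0.30, adjusted p = 1.1e-14). The cofactor Dnmt3l was not called (log2 0.10 ± 0.39). Of 29 Polycomb genes, 1 rose and 7 fell (median -0.50), against 1 and 2 with median-ratio scaling and 3 and 1 with quantile normalization. Mtf2, an accessory subunit of the PRC2 complex, averaged 83.5 ± 9.15 TPM in TE E4.5 and 358 ± 15.7 TPM in TE E3.5 (log2 -2.09 ± 0.20), and Yaf2, of PRC1, rose (log2 1.60 ± 0.31). Of 19 genes for H3K4 methyltransferase complexes and H3K4 or H3K27 demethylases, 0 rose and 8 fell (median -0.70), against 1 and 4 with median-ratio scaling and 1 and 2 with quantile normalization. Wdr5, a core subunit of those complexes, averaged 16.2 ± 1.23 TPM in TE E4.5 and 64.9 ± 2.49 TPM in TE E3.5.

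Of 14 oocyte and early cleavage genes, 0 rose and 5 fell (median -0.13). Dppa3, a maternal factor, had 299, 315 and 285 TPM in TE E4.5, against 6480, 6173 and 5955 TPM in TE E3.5 (log2 -4.37 ± 0.46, adjusted p = 5.1e-11). Dppa3 was lower in every TE E4.5 library, as was Ooep, of the oocyte subcortical complex (log2 -3.60 ± 0.35). Of 17 immediate early and heat shock genes, 3 rose and 4 fell (median -0.52), against 5 and 3 with median-ratio scaling and 6 and 3 with quantile normalization. Fos and Dusp1, induced within minutes of a stimulus or of handling, averaged 125 ± 6.03 and 162 ± 22.5 TPM in TE E4.5, against 9.80 ± 2.65 and 20.1 ± 2.57 TPM in TE E3.5. Junb, of the same class, fell to 5.20 ± 1.05 TPM in TE E4.5, against 48.1 ± 4.57 TPM in TE E3.5, as did the heat shock gene Hsph1 (log2 -2.57 ± 0.28). The part of dissociation in these values was not tested. Of 17 p53 target and apoptosis genes, 2 rose and 4 fell (median 0.26), against 6 and 3 with median-ratio scaling. Phlda3, a p53-induced AKT repressor, rose (log2 2.23 ± 0.30), and the p53-induced desmosomal protein Perp fell to 21.9 ± 4.40 TPM in TE E4.5, against 201 ± 25.9 TPM in TE E3.5.

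**Figure D3:**
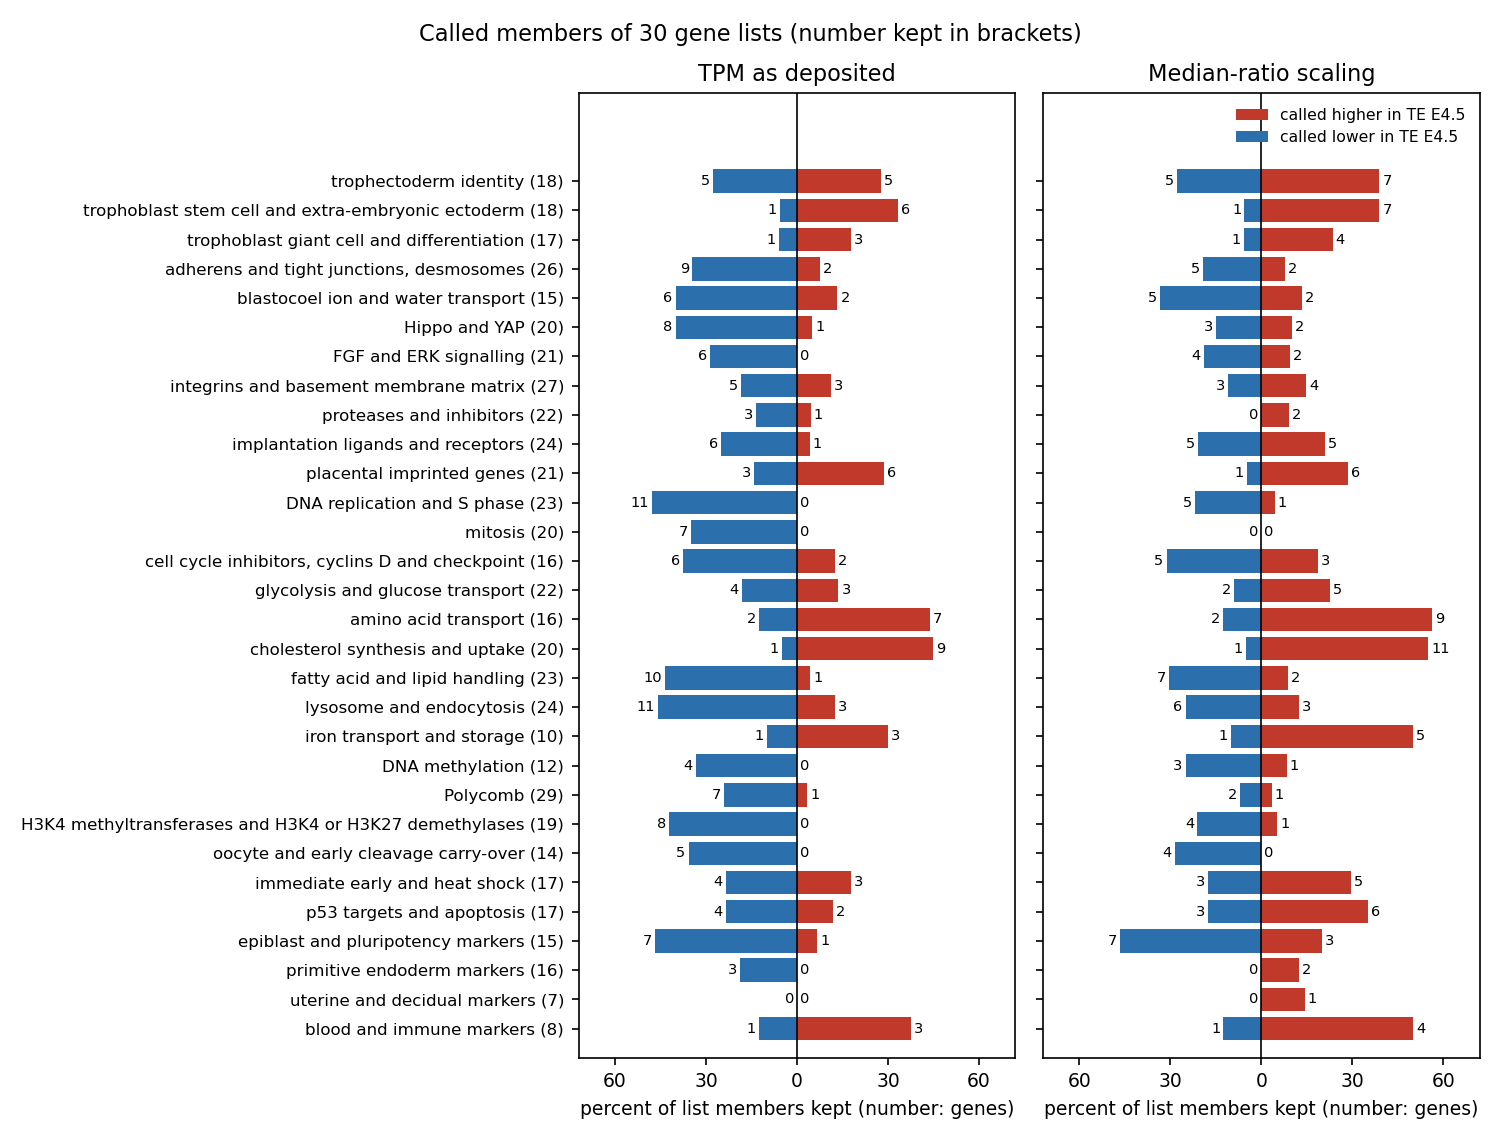
Percent of the kept members of each of 30 gene lists called higher (red, to the right) or lower (blue, to the left) in TE E4.5, with gene counts at the bar ends, on TPM as deposited (left panel) and with median-ratio scaling (right panel). The 7 lower calls of the mitosis list and the 3 of the primitive endoderm list were not made with median-ratio scaling, while cholesterol synthesis had 9 higher calls on TPM as deposited and 11 with that scaling.

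Markers of other cells were read in the same libraries. In pools of cells, fewer cells of a type and less RNA per cell cannot be told apart. Of 15 epiblast and pluripotency genes, 1 rose and 7 fell (median -0.40), against 3 and 7 with median-ratio scaling. Nanog had 0.640, 1.16 and 0.560 TPM in TE E4.5, against 65.1, 64.8 and 80.2 TPM in TE E3.5. Pou5f1, the pluripotency factor Oct4, averaged 2.34 ± 0.764 TPM in TE E4.5 and 87.3 ± 13.2 TPM in TE E3.5 (log2 -4.74 ± 0.40). Neither overlapped between the groups. Within that list Sox2 and Fgf4, named after their values were seen, were under 1 TPM in all 6 libraries, at most 0.326 TPM in TE E4.5 and 0.854 TPM in TE E3.5. Other members, also named after their values were seen, were not low. Utf1 had 128 to 150 TPM in TE E4.5 and 89.5 to 110 TPM in TE E3.5. Dppa4 had 48.7 to 57.9 TPM in TE E4.5 and 208 to 227 TPM in TE E3.5. The summed level of the list was 24073 to 26196 TPM in TE E4.5 and 11134 to 12509 TPM in TE E3.5, nearly all from Dppa5a (24580 ± 1198 TPM in TE E4.5 and 11296 ± 729 TPM in TE E3.5), a gene with near-identical copies. Dppa5a was the called rise of the list, and was not called with quantile normalization (log2 0.43).

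Of 16 primitive endoderm genes, 0 rose and 3 fell, against 2 and 0 with median-ratio scaling. Gata6, a factor of that lineage, averaged 9.79 ± 1.47 TPM in TE E4.5 and 23.6 ± 2.48 TPM in TE E3.5 (log2 -1.19 ± 0.33). The list summed to 54.8 to 64.4 TPM in TE E4.5 and 78.4 to 94.7 TPM in TE E3.5, and 4 of its 16 genes were listed at 0 in all TE E4.5 libraries and 6 in all TE E3.5 libraries. Of 17 uterine and decidual genes, 7 were kept (median 0.05) and 0 were called by limma, with 1 higher under median-ratio scaling and sums of 12.6 to 16.2 TPM in TE E4.5 and 2.78 to 9.06 TPM in TE E3.5. Most of this was Msx1, a homeobox gene, at 12.6 ± 0.959 TPM in TE E4.5 and 4.51 ± 2.71 TPM in TE E3.5. Of 13 blood and immune genes in the table, 8 were kept (median 0.48), 3 rose and 1 fell, with sums of 11.4 to 14.0 TPM in TE E4.5 and 2.76 to 5.47 TPM in TE E3.5. S100a8 and S100a9, abundant in neutrophils, averaged 3.74 ± 0.799 and 2.90 ± 0.638 TPM in TE E4.5 and were listed at 0 in TE E3.5. Ptprc and Tyrobp, which mark white blood cells and were named after their values were seen, were listed at 0 in all 6 libraries. The part of other cells in the results was not tested beyond these values.

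The change over the same day was next compared between lineages. The difference between the TE change and the Epi E4.5 minus ICM E3.5 change was called for 4110 genes (26.4%), and the difference from the PrE E4.5 minus ICM E3.5 change for 4472 genes (28.7%). Both comparisons share the TE and the ICM libraries. Rn45s alone took 184200 to 246300 TPM in Epi E4.5 and 150300 to 206200 TPM in PrE E4.5, against 5215 to 5959 TPM in ICM E3.5. With Rn45s dropped and the columns rescaled, 1036 genes (6.6%) were higher and 3536 (22.5%) lower against the Epi change, 4572 (29.1%) in all, compared with 1385 (8.9%) and 2725 (17.5%) on TPM as deposited. Against the PrE change the counts were 1600 (10.2%) and 3044 (19.4%), 4644 (29.6%) in all, with it dropped, compared with 1907 (12.3%) and 2565 (16.5%). The Epi E4.5 libraries also held some trophectoderm transcripts. Elf5, an ETS factor of trophoblast named after its values were seen, had 19.5 to 22.7 TPM there. It had at most 0.644 TPM in ICM E3.5 and was at 0 in PrE E4.5. Genes of the trophectoderm identity list, also named after their values were seen, moved both ways. Id2 had 160 to 245 TPM in Epi E4.5 and 20.5 to 23.2 TPM in ICM E3.5, and Lgals1 143 to 210 and 31.3 to 32.7 TPM. Elf3 had 30.6 to 70.2 TPM in Epi E4.5 and 261 to 320.5 TPM in ICM E3.5, and Gata3 1.15 to 10.2 and 15.3 to 25.05 TPM. The 18 trophectoderm identity genes summed to 1110 to 1277 TPM in Epi E4.5 and 1016 to 1060 TPM in ICM E3.5. Those close sums hide the opposite moves of single members. In PrE E4.5 the sum was 1726 to 2671 TPM, and Dab2 accounted for most of it. The part of trophectoderm RNA in the Epi values was not tested.

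Of the 506 genes that rose in TE, the change of 182 (36.0%) was higher than in both inner lineages and that of 133 (26.3%) was called against neither. Of all 15567 genes tested, 6.15% were higher against both and 60.4% were called against neither. Of the 2855 that fell, 729 (25.5%) were lower against both, beside 8.51% of all genes tested, and 1071 (37.5%) were called against neither. The genes had been selected on the TE change that enters both differences, so nothing is read from these shares. Phlda2 rose more in TE than in either, with differences of change of 5.62 ± 0.45 against Epi (adjusted p = 7.3e-15) and 9.88 ± 0.45 against PrE (adjusted p = 1.6e-24). Bex1 had 447 to 589 TPM in Epi E4.5 and 24.2 to 37.4 TPM in PrE E4.5, against 0 in ICM E3.5. Its rise in TE was not called as different from that in Epi (-0.81 ± 0.30), but was called lower than it with Rn45s dropped (-1.18), quantile normalization (-1.45) or a pseudocount of 0.1 TPM (-3.62). It was larger than in PrE (3.28 ± 0.30), a call lost with a pseudocount of 0.1 TPM (0.52). BC051665 had 166 to 224 TPM in Epi E4.5 but was at 0 in PrE E4.5 and ICM E3.5, so its difference from the Epi change rests on values of 0. It was 0.68 ± 0.27 (not called) with a pseudocount of 1 TPM and -2.54 with 0.1 TPM, and was called higher with median-ratio scaling. The change of Socs1 was lower in TE than in either lineage (-5.04 ± 0.81 against Epi and -5.55 ± 0.81 against PrE), with 3.75 to 35.6 TPM in Epi E4.5, 15.8 to 29.8 TPM in PrE E4.5 and 22.7 to 25.0 TPM in ICM E3.5. Bhmt was listed at 0 in all Epi E4.5 and PrE E4.5 libraries, against 2437 to 2658 TPM in ICM E3.5. The plot by lineage shows these levels in each library.

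**Figure D4:**
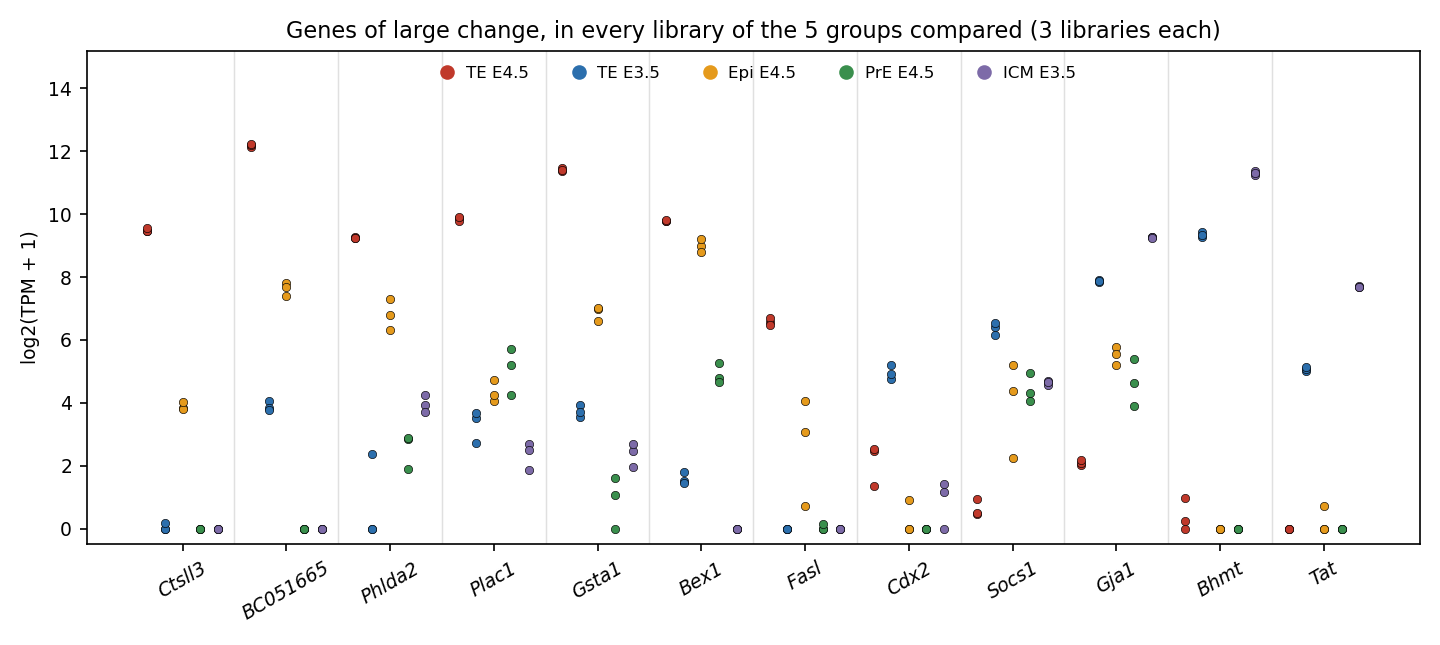
log2(TPM + 1) of 12 genes of large change in every library of TE E4.5, TE E3.5, Epi E4.5, PrE E4.5 and ICM E3.5 (3 libraries each). Ctsll3, Phlda2, Plac1, Gsta1 and Fasl are highest in TE E4.5, Bex1 is also abundant in Epi E4.5, and Bhmt and Tat are lower at E4.5 in every lineage.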

How the data were processed

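RNA was measured by Smart-seq2 in 67 libraries of 23 groups. The authors deposited a table of TPM values for 25006 genes. The submitters' processing notes name mm10, HISAT2 2.2.1, StringTie 2.2.1 and, with no version, Cufflinks. What each tool did, which annotation was counted and whether strand was used is not given in the sources used here, so overlapping or near-identical genes cannot be told apart with certainty. TPM keeps no depth, so no counting interval is given, and a gene at exactly 0 is called listed at 0.

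Differences are on the log2(TPM + 1) scale, where those of low genes are understated. A gene entered the tests (15567 did) if 3 or more libraries reached 1 TPM. Group means of all 67 libraries were fitted with limma 3.58.1 in R 4.3.3 with an intensity trend, with Benjamini-Hochberg adjustment over the 15567. Calls needed an adjusted p under 0.05 together with a log2 difference of 1 or more in size. Labels do not tie libraries to embryos, so p-values measure spread among libraries, part of which can be technical. That spread is pooled per gene over all 23 groups, and is not that of the TE libraries alone. The median SD of log2(TPM + 1) within a group was 0.14 in TE E4.5, 0.17 in TE E3.5 and 0.49 in Epi E4.5. A fit of only the TE E4.5 and TE E3.5 libraries called 575 genes higher and 3302 lower. Levels are means ± SD over 3 libraries and differences are ± standard error. Differences between lineages are interaction contrasts of the same fit. Figures were drawn in python 3.11.15.

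Cdx2, Krt18 and Rn45s were named, with, from every list, at most 2 members called in each direction, the uncalled member of highest mean TPM (of which some are left out) and, per direction, the 8 called genes of largest difference that did not overlap between groups and averaged at least 10 TPM in a group. The leading genes exclude predicted genes, Y-linked genes and Xist. The 30 lists hold 598 symbols, of which 595 were in the table and 557 were kept. The members, lists and tests were chosen with earlier results of these data known. The promoters, motifs and other genes said to be so named were chosen after their values were seen, as was the choice to follow only both markers and the 16 leading genes across lineages. Positions and promoters are from RefSeq on GRCm38.p6, the assembly of mm10, and promoter windows matched 12003 of the genes kept. The limma model was first tested on simulated data with the same spread per gene in all groups. The model assumes this too, so that test cannot show how unequal spread acts. Alternatives were no filter, a pseudocount of 0.1 TPM, Rn45s dropped, quantile normalization, median-ratio scaling, array weights, only the groups compared, no minimum difference, a replicate block and each TE library left out.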

Additional observations from a re-analysis of the deposited data

Results flagged for a closer look

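The change from E3.5 to E4.5 differed between TE and the inner lineages for 4110 genes against Epi and 4472 genes against PrE (limma interaction contrasts). Among both markers and the 16 leading genes, 11 differed the same way from both. Of all 15567 genes tested, 6.15% were higher and 8.51% lower in TE change than in both, and since the 16 leading genes were chosen for a large TE change, nothing is read from the count. The values are differences of log2 changes, TE minus the other lineage. Ctsll3 was at 5.56 against Epi and 9.45 against PrE. Phlda2 was at 5.62 and 9.88 in the same order, Gsta1 at 3.21 and 9.18, and Gsta2 at 6.64 and 10.7. Fasl was at 3.97 against Epi and 6.54 against PrE, and Plac1 at 4.58 and 3.86. Lower in TE were Socs1 at -5.04 against Epi and -5.55 against PrE, Cdx2 at -2.29 and -1.99, and Gja1 at -2.01 and -1.15. Cdx2 was at most 1.68 TPM in every library of ICM E3.5, Epi E4.5 and PrE E4.5, so it had little room to fall there. Bhmt was at 2.37 against both and Tat at 2.39 against Epi and 2.62 against PrE, the value against Epi losing its call with a pseudocount of 0.1 TPM (1.70). Both stood at lower levels in TE E3.5 than in ICM E3.5. Values against Epi stand beside the trophectoderm transcripts in the Epi E4.5 libraries, whose part was not tested.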

How the results depend on the processing

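Scaling moved the counts most. Genes called higher numbered 506 on TPM as deposited, 1216 with median-ratio scaling, 1187 with quantile normalization and 895 with no minimum difference. Genes called lower numbered 2855, 1562 with median-ratio scaling and 1291 with quantile normalization. Leaving out any 1 TE library gave 461 to 468 higher and 2432 to 2664 lower. The counts of genes that differed between lineages stayed within 1.5 times under every alternative run. The alternatives for list counts and for differences of single genes between lineages were chosen after seeing the data. Of 60 list counts, 27 moved by over 1.5 times with median-ratio scaling and 27 with quantile normalization, and 0 with Rn45s dropped. Of the 104 called genes among the 111 followed, 85 were called the same way under every alternative and 0 reversed. Calls were lost for 8 with median-ratio scaling, 10 with quantile normalization, 11 with a pseudocount of 0.1 TPM and 8 with 1 library left out. Among uncalled genes, Krt18, Fabp3 and Fth1 were called higher with median-ratio scaling (1.03, 1.13 and 1.19), Fabp3 was at 0.00 with quantile normalization, and Dnmt3l ranged from -0.0099 (without TE E3.5 replicate 2) to 0.18 with 1 library left out. Of differences between lineages, with a pseudocount of 0.1 TPM BC051665 against Epi was at -2.54 (called), Spic against Epi at -1.28, and Alppl2 at 0.70 against Epi and 1.62 against PrE. With quantile normalization Alppl2 was at 0.36 and 0.27. The Cdx2 difference lost its call against both lineages with a pseudocount of 0.1 TPM (-1.65 against Epi, -0.56 against PrE) and with quantile normalization (-1.45 and -1.37), and against PrE with median-ratio scaling (-1.59) or without TE E4.5 replicate 1 (-1.61). The Gja1 difference against PrE lost it with quantile normalization (-0.32), median-ratio scaling (-0.91), no filter or only the groups compared (both -1.15), and without TE E4.5 replicate 1 (-1.12) or TE E3.5 replicate 2 (-1.13). With a pseudocount of 0.1 TPM calls were also lost for Tat against Epi (1.70) and Bex1 against PrE (0.52). The cause was not tested.

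Deviations of same-numbered libraries correlated by 0.007, 0.009 and 0.016, and those of differently numbered libraries by -0.011 to 0.002. With 3 libraries per group, these values cannot decide whether replicate numbers pair the samples, and the main fit treats them as unpaired. A fit of the 6 TE libraries with a replicate block gave 517 higher and 3058 lower. Depth is unknown, so no limit from it can be given for low genes.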

Other observations

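The groups described here were picked after their values were seen, so they are given as counts, with no test. Of all genes tested, 3.25% rose and 18.3% fell, or 7.81% and 10.0% with median-ratio scaling. The leading genes Gsta1, Gsta2, Bex1 and Bhmt are members of these groups. Of 21 genes of the amino acid response, 12 rose and 0 fell (median 1.53). Asns, asparagine synthetase, had 260, 296 and 302 TPM in TE E4.5, against 16.3, 19.7 and 13.3 TPM in TE E3.5. The stress-responsive coregulator Nupr1 had 593, 584 and 541 TPM in TE E4.5, against 18.0, 17.8 and 8.84 TPM in TE E3.5, and Chac1, which degrades glutathione, had 29.4 to 38.0 TPM in TE E4.5 and at most 0.629 TPM in TE E3.5. Atf4, the transcription factor of that response, was not called (log2 0.70 ± 0.14), but was called higher with median-ratio scaling (log2 1.29). Of 24 glutathione S-transferase genes kept, 6 rose and 0 fell (median 0.19). Of 11 Bex and Tceal genes kept, 6 rose and 0 fell (median 3.03). Among the rises was Bex3, at 2468 ± 93.1 TPM in TE E4.5 and 37.1 ± 3.11 TPM in TE E3.5. Of 20 Rhox genes kept, 10 rose and 0 fell (median 1.23), several of them near-identical copies.

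Of 20 autophagy genes, 1 rose and 12 fell (median -1.60), and 9 fell with median-ratio scaling. The share of all genes tested that fell was 18.3%, and 10.0% with median-ratio scaling. Map1lc3b, whose product coats autophagosomes, had 327, 314 and 318 TPM in TE E4.5, against 1899, 1981 and 1811 TPM in TE E3.5. Gabarapl1, of the same family, was the gene that rose, with 35.1, 29.7 and 38.6 TPM in TE E4.5 and 6.57, 5.99 and 3.72 TPM in TE E3.5. Of 9 genes of methionine and betaine metabolism kept, 0 rose and 5 fell. Besides Bhmt these included its paralogue Bhmt2, listed at 0 in TE E4.5 and at 16.5 ± 5.89 TPM in TE E3.5, and the methionine adenosyltransferase Mat2a, with 31.4, 37.4 and 34.3 TPM in TE E4.5, against 151, 165 and 184 TPM in TE E3.5.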
